A study of Drosophila melanogaster with 3 samples.

Results

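The genes described here are 10 components of the Notch, Dpp and JAK-STAT signalling pathways, out of 13968 protein-coding genes on the major chromosome arms of the fly annotation. They were taken by name and not by a cut-off on a measured value, but were chosen with earlier results of these data known. They are N, Dl and Ser of the Notch pathway, dpp, tkv, put and sax of the Dpp pathway, and hop, dome and upd1 of the JAK-STAT pathway. The annotation lists Dl under the name Delta. Each gene was examined over its body plus 10 kb on either side, which is called its territory here. The data are chromatin immunoprecipitation sequencing (ChIP-seq) peak lists made with an anti-GFP antibody from whole Drosophila melanogaster embryos of the strain tgo-GFP, collected from 0 to 24 h, in which tango (tgo) carries a GFP tag. Tango is a bHLH-PAS transcription factor, the fly counterpart of ARNT, and forms DNA-binding pairs with Single-minded or Trachealess among others. The 3 biological replicates form a single group without an untagged or treated one, so peaks of the antibody that do not depend on Tango cannot be told apart. Whole embryos of this age range mix all cell types and embryonic stages, and the lists do not say in which cells a place was bound.

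All 3 pathways carry signals between neighbouring or nearby cells of the embryo. In the Notch pathway, the membrane ligands Delta (Dl) and Serrate (Ser) of one cell bind the receptor Notch (N) of the next, whose inner domain is then cut free and acts in the nucleus. Decapentaplegic (dpp) is a secreted BMP ligand, read by the type I receptors Thickveins (tkv) and Saxophone (sax) together with the type II receptor Punt (put). Unpaired 1 (upd1) is a secreted cytokine-like ligand that acts through the receptor Domeless (dome) and the JAK kinase Hopscotch (hop).

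The thresholded lists held 3605, 4759 and 3026 peaks on the major arms in replicates 1, 2 and 3, and the longer ranked lists from which they are drawn held 34654, 75861 and 33142 candidates. Read depth is unknown, so the precision of a single peak is too. The thresholded lists end at an irreproducible discovery rate (IDR) of 0.01, and a low IDR marks a peak whose rank recurs between paired rankings. Summits within 150 bp of each other were joined into 5569 regions, and the 3463 present in at least 2 of the 3 lists are called shared. The strength of a peak is given as its percentile by the authors' signal within its own list, a higher percentile being a stronger peak. The signal itself has no stated unit and is not compared between lists.

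The 4 strongest shared regions of the territories were narrow enough to print whole, and each was present in all 3 thresholded lists. They are shown because they carry the highest values at these genes: an intron of N, an intron of dpp, an intron of CG1737 near hop, and an intron of Zw near dome. The sequence of the N start region is added because it was the single shared region in a promoter of any of the 10 genes. Each is the plus strand of dm6, read from the matching NCBI Release 6 assembly. Capitals mark matches, on either strand, to any of 10 short motifs searched: ACGTG and GCGTG (cores bound by Tango with its partners), TATCGA (DREF), GATAA (GATA factors), GAGAG (GAGA factor), CAGGTA (Zelda), GTGGGAA and GTGAGAA (Suppressor of Hairless, the DNA-binding factor of the Notch pathway), TTCNNNGAA (STAT) and GCCGNCG (Mad, the Smad of the Dpp pathway). A match is a description of letters and not a binding site.
N intron, chrX:3162406-3162623: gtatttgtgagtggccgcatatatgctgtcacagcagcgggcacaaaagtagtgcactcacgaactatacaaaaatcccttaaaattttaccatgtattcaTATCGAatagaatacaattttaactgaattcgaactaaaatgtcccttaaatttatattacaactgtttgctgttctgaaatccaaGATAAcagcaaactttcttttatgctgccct
dpp intron, chr2L:2433559-2433740: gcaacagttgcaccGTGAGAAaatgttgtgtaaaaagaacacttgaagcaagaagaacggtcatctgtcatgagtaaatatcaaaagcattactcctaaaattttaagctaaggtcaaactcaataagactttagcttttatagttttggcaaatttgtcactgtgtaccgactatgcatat
CG1737 intron near hop, chrX:11351427-11351666: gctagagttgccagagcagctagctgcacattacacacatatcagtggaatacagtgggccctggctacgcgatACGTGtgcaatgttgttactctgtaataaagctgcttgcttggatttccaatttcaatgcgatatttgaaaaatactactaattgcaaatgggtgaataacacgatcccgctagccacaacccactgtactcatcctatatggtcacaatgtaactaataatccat
Zw intron near dome, chrX:19668527-19668719: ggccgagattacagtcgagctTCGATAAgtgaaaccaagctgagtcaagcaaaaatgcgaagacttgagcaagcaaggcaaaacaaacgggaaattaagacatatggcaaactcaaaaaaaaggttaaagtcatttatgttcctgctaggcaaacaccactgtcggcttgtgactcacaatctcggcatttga
N start region, 100 bp at the summit, chrX:3134614-3134713: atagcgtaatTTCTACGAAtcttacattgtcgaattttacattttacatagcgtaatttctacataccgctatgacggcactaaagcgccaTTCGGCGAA

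The capitals in these sequences are few and differ from one to the next. The N intron holds TATCGA and GATAA, the dpp intron GTGAGAA, the CG1737 intron ACGTG, and the Zw intron an overlapping TATCGA and GATAA. The N start region holds TTCNNNGAA at 2 places. Among all 3463 shared regions, the deposited interval of 15.5% held TATCGA, that of 48.8% held GATAA, that of 3.64% held GTGAGAA and that of 20.04% held ACGTG. The 4 printed intervals are 182 to 240 bp long, while the median peak width was 340, 340 and 350 bp in thresholded lists 1, 2 and 3. These shares thus come from mostly longer intervals, which have more room for a match. TTCNNNGAA was present in the 100 bp at the summit of 3.06% of all shared regions.

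Across the territories, which cover 0.396 Mb, replicates 1, 2 and 3 had 15, 20 and 12 thresholded summits, a mean of 15.7 ± 4.04 (SD, n = 3). These made up 21 regions, of which 17 were shared, 10 of them in all 3 lists, and 4 were in a single list. Of the 10 genes, 7 had at least 1 shared region: N, dpp, tkv, put, sax, hop and dome. The same rule called 54.9% of all protein-coding genes, so a shared region within 10 kb is common and the 7 of 10 is to be read against that share. Dl, Ser and upd1 had no thresholded summit in any list, while 66% of all genes had at least 1 in at least 1 list. Without replicate 2, which has the longest list, 9 shared regions remained at 5 of the 10 genes.

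Inside the gene bodies there was less. Only N, dpp and tkv had a shared region within their own body, with 2, 1 and 3 of them, and the remaining 11 shared regions lay outside. Over all genes, 9.63% had a shared region in the body. The 10 genes are long, with a median length of 14818 bp against 2164.5 bp over all protein-coding genes, so the genes were also set beside others of 20 kb or more, a limit chosen after seeing the data. N, dpp and tkv are among the 5 members of that length, the other two being Dl and Ser, and 45.7% of all genes that long had a shared region in the body. With the flanks included the share of long genes was 66.8%, beside 3 of the 5 long members, and that of shorter genes was 53.9%, beside 4 of the 5 shorter members. The bars of shared regions by gene length show how far the body share moves with length, from 1.59% of genes under 2 kb to 50% of genes of 40 kb or more.

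**Figure D1:**
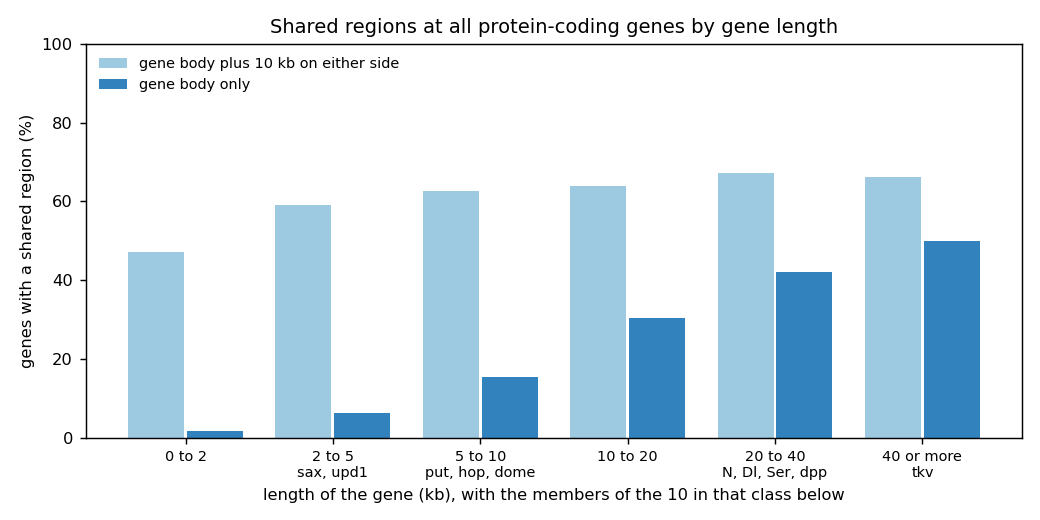
Percentage of all protein-coding genes (y axis) with a shared region in the gene body plus 10 kb (light bars) or in the body alone (dark bars), in classes of gene length in kb (x axis), with the members of each class named below it. The dark bars go from 1.59% in the shortest class to 50% in the longest, and the light bars from 47.3% in the shortest to 66.2% in the longest.

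The density of thresholded summits was higher in the joined territories than in the rest of the major arms in each replicate. It was 37.9 summits per Mb against 26.2 in replicate 1, 50.5 against 34.6 in replicate 2 and 30.3 against 22.0 in replicate 3. The rest was the full remaining length of these arms, Y included (137 Mb), and was not limited to the surroundings of genes. The density around genes in general was not computed, so the ratio is not one against other genes. The log2 ratio was 0.52 ± 0.045 (SD, n = 3), positive in 3 of 3 replicates, with a two-sided exact permutation p of 0.25, the smallest that 3 replicates allow. This did not hold in all replicates for narrower territories. Over the gene bodies alone the log2 ratio was -0.04, 0.24 and 0.22 in replicates 1, 2 and 3, with a two-sided exact permutation p of 0.5. With 2 kb on either side it was -0.04, 0.43 and 0.21, again with a two-sided exact permutation p of 0.5. The ranked candidates, before any threshold, gave a log2 ratio of 0.03, 0.45 and 0.33 in replicates 1, 2 and 3. The share of candidates in the territories that passed into the thresholded lists was 14.7%, 6.73% and 10%, against 10.4%, 6.27% and 9.13% elsewhere. The difference within a replicate was positive in 3 of 3, at 1.88 ± 2.12 percentage points (SD, n = 3), most of it from replicate 1, and was not tested.

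The map of summits along the 10 genes shows where these places lie.

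**Figure D2:**
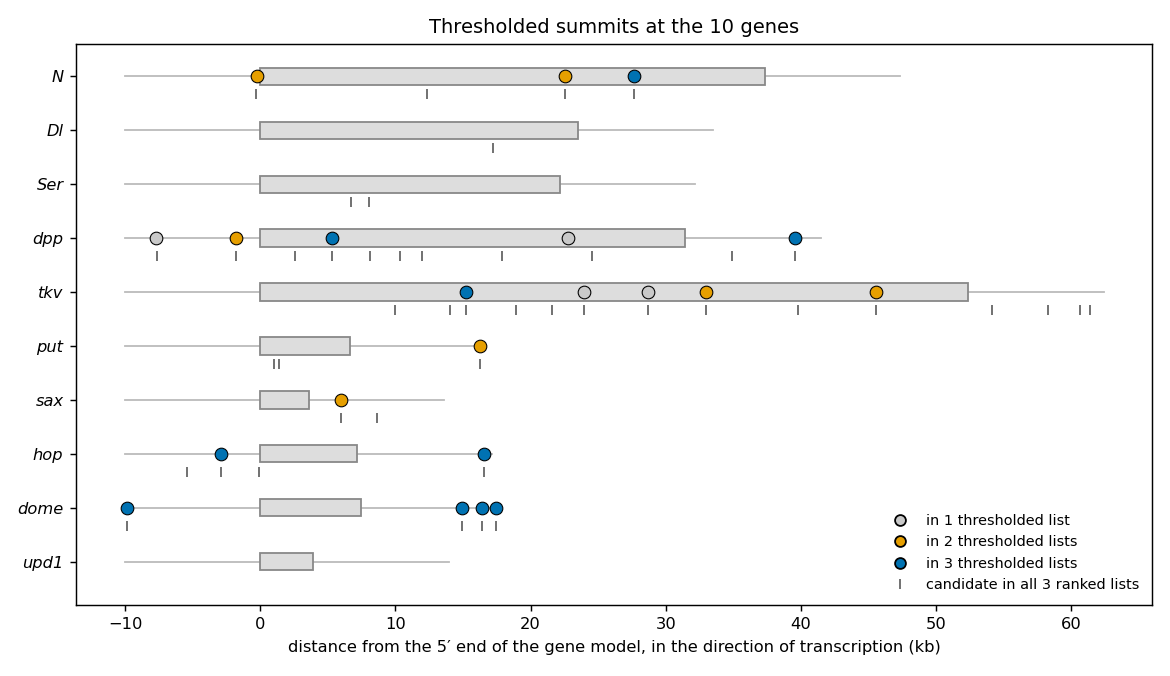
Each gene is a grey box drawn to scale in its direction of transcription (x axis, kb from the 5′ end of the gene model), with a line for 10 kb on either side, filled circles for thresholded regions coloured by the number of lists that hold them, and ticks for places with a candidate in all 3 ranked lists. N, dpp and tkv carry circles inside the box, put, sax, hop and dome only on the flanks, and Dl, Ser and upd1 carry none.

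N, the receptor of the Notch pathway (FBgn0004647, chromosome X, 3134870 to 3172221, plus strand), had 2, 3 and 2 thresholded summits in replicates 1, 2 and 3. Its strongest region was the intron region printed above, with the summit 27664 bp from the N start. It stood at percentile 87.8, 91.0 and 89.8 of the 3 lists, or 89.5 ± 1.63 (SD, n = 3), the summits of the 3 replicates spanned 25 bp, and the nearest start site of any protein-coding gene was that of CG18508, 10606 bp away. Its SD over replicates was the smallest of the 17 but for that of the Zw intron region near dome.

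A second region in N (chromosome X, 3157276 to 3157615, intron) was weaker, at percentile 16.9 and 34.0 in replicates 1 and 2, and replicate 3 had a ranked candidate there with an IDR of 0.286. The third region (3134489 to 3134838) was at the N promoter, with its summit 206 bp upstream of the start. That is the replicate 3 summit, and the replicate 2 summit lay 90 bp from it. With summits joined within 50 bp, N had 2 shared regions. The promoter region stood at percentile 34.3 and 38.4 in replicates 2 and 3, and replicate 1 had a ranked candidate there with an IDR of 0.332. This promoter region was the only 1 of the 17 shared regions without a counterpart in the conservative list of the whole series. That list held another peak in an N intron, with its summit 12307 bp from the start, where all 3 ranked lists had a candidate but no thresholded list a summit.

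The ligands of Notch had candidates but no thresholded summit. Dl (FBgn0000463, chromosome 3R, 19302731 to 19326217, minus strand) had 5, 20 and 15 ranked candidates in replicates 1, 2 and 3. In replicates 2 and 3 the strongest by signal lay at the same place in an intron, 1341 and 1342 bp inside the gene, at percentile 86.3 and 80.1 of the ranked lists with an IDR of 0.228 and 0.684. The strongest of replicate 1 lay elsewhere, downstream of the gene, at percentile 52.4 with an IDR of 0.486.

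Ser (FBgn0004197, chromosome 3R, 27172090 to 27194267, minus strand) had 16, 32 and 6 candidates. Here the strongest of each replicate lay within 201 bp of the others, in an intron between 7562 and 7763 bp from the nearest Ser start, at percentile 84.2, 92.0 and 70.0 of the ranked lists. Their IDRs were 0.725, 0.0642 and 0.685, all above the limit of the thresholded lists. The conservative list of the whole series did include a peak at this place, with the summit at position 27186232. Dl and Ser therefore differ in this respect. The place of Ser, with a candidate in all 3 ranked lists, is in a list made from all 3 replicates. The Dl intron place above was the strongest in replicates 2 and 3 only, and is in none of the thresholded lists used here. The only Dl place with a candidate in all 3 ranked lists was another, at percentile 8.96, 48.2 and 7.77 with IDRs of 0.858, 0.857 and 0.859. It is in no thresholded list either.

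The ligand gene dpp (FBgn0000490, chromosome 2L, 2428372 to 2459823, plus strand) had 4, 5 and 2 thresholded summits in replicates 1, 2 and 3, which formed 5 regions, 3 of them shared. The strongest was the intron region printed above, with its summit 5287 bp from the dpp start. It stood at percentile 82.3, 88.2 and 72.1, or 80.8 ± 8.15 (SD, n = 3). A second region in all 3 lists (2467764 to 2468103) lay in intergenic sequence 8111 bp past the 3′ end of the gene, at percentile 41.6, 25.9 and 34.1. The third (2426419 to 2426758) lay 1783 bp upstream of the start, at percentile 7.49 and 20.8 in replicates 1 and 2, and replicate 3 had a candidate there with an IDR of 0.183. All 3 shared regions of dpp were nearer to a start site of dpp than to that of any other gene, which held for 5 of the 17.

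The other 2 dpp regions were each in a single list. A summit 57 bp upstream of an internal dpp start site, 22800 bp into the gene, was in the list of replicate 2 alone at percentile 16.1, and the other replicates had no ranked candidate within 150 bp. The other (summit at position 2420693) lay 137 bp upstream of the neighbouring gene CG9886. It passed in replicate 1 alone, at percentile 21.9 of the thresholded list and with an IDR of 0.00506, while the candidate of replicate 2 stood at percentile 97.2 of its ranked list with an IDR of 0.132 and did not pass.

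Among the receptors of Dpp, tkv (FBgn0003716, chromosome 2L, 5219000 to 5271384, minus strand), a type I receptor and the longest of the 10 genes, had 2, 4 and 3 thresholded summits, all inside the gene body. They formed 5 regions, of which 3 were shared, each in an intron. The region in all 3 lists (5256001 to 5256340) stood at percentile 16.2, 54.1 and 10.01, and replicate 2 was far above the other two. A region 1023 bp upstream of an internal tkv start (5238210 to 5238559) stood at percentile 12.3 in replicate 2 and 70.8 in replicate 3, and replicate 1 had a candidate with an IDR of 0.201. The third (5225639 to 5225978) stood at percentile 10.5 and 28.5 in replicates 1 and 2. No shared tkv region had a consistently high rank like those of N and dpp, and none was above the median signal in both of 2 lists.

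Both remaining tkv regions were in a single list: one 76 bp upstream of an internal tkv start at percentile 8.51 in replicate 2, and one 3295 bp upstream of a start at percentile 10.5 in replicate 3. The tkv territory also held the largest numbers of ranked candidates of the 10, with 21, 73 and 31. One of them, 494 bp upstream of the cytochrome P450 gene Cyp28d1 in replicate 2, had an IDR of 0.000177 and percentile 97.0 of the ranked list, yet is not in the thresholded list of that replicate. It was the only candidate in the 10 territories past the limit of 0.01 that is missing from its thresholded list, and why it is missing was not tested.

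The type II receptor gene put (FBgn0003169, chromosome 3R, 14619030 to 14625703, minus strand) had 1, 1 and 0 thresholded summits. They formed 1 shared region (14609285 to 14609624), 9575 bp past the 3′ end of put and 187 bp upstream of the start of CG14853. It stood at percentile 59.9 in replicate 1 and 66.4 in replicate 2, and the strongest candidate of replicate 3 within 150 bp had an IDR of 0.651. A stronger candidate of replicate 3 lay 153 bp away, at percentile 89.9 of its ranked list with an IDR of 0.728. Inside put itself, introns held candidates of all 3 ranked lists at 2 places, 982 and 1415 bp from the start, with IDRs between 0.0693 and 0.730, and none passed.

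The second type I receptor gene, sax (FBgn0003317, chromosome 2R, 7806484 to 7810067, plus strand), also had 1, 1 and 0 thresholded summits. Its shared region (7812277 to 7812616) lay 2380 bp past the 3′ end and 57 bp upstream of the start of puml. It stood at percentile 28.0 and 59.2 in replicates 1 and 2, and the candidate of replicate 3 had an IDR of 0.157. The summit window here had the highest GC of the 17, at 65%. Thus the receptor genes put and sax each had a shared region at the promoter of a neighbour and none of their own.

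The plot of signal rank by replicate sets the 17 shared regions side by side.

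**Figure D3:**
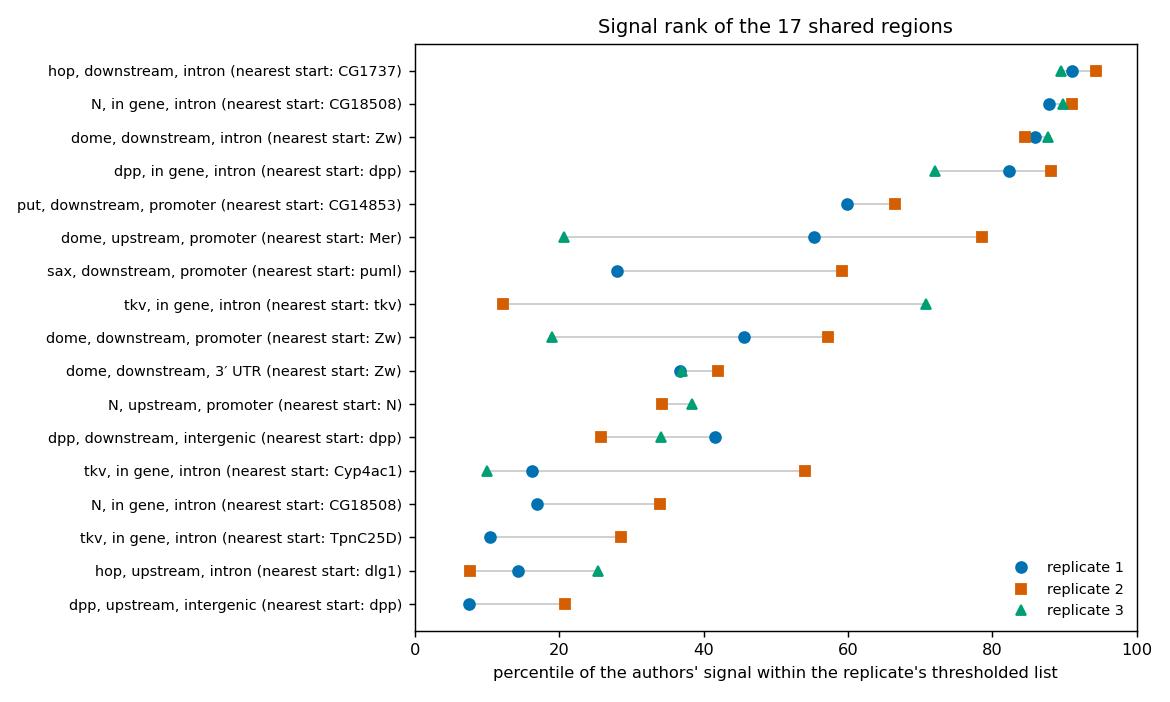
Percentile of the authors' signal within each replicate's thresholded list (x axis) for the 17 shared regions, ordered by their mean, with 1 marker per replicate and a missing marker where the list has no summit there. The top 3 regions, near hop, in N and near dome, lie between 84.5 and 94.3 in all 3 lists, and the others range from 7.49 to 88.2.

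In the JAK-STAT pathway every shared region was in all 3 lists, 6 of 6, beside 65.6% of the shared regions outside the 10 territories. These few regions came from hop and dome alone, and none was in the body of a member. The kinase gene hop (FBgn0004864, chromosome X, 11360930 to 11368098, minus strand) had 2 thresholded summits in each replicate. One is the CG1737 intron region printed above, 9373 bp past the 3′ end of hop and 949 bp from the CG1737 start. At percentile 91.1, 94.3 and 89.5, or 91.6 ± 2.46 (SD, n = 3), it was the strongest of the 17, and the summits of the 3 replicates spanned 4 bp. The other (11370855 to 11371204) lay 2932 bp upstream of the hop start in an intron of dlg1, which encodes the junction scaffold Discs large. It was near the bottom of the lists, at percentile 14.3, 7.67 and 25.4. At the hop start itself, 83 bp upstream, all 3 ranked lists had a candidate that did not pass, with IDRs of 0.197, 0.650 and 0.187.

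The receptor gene dome (FBgn0043903, chromosome X, 19676061 to 19683518, minus strand) had 4 shared regions, with 3, 4 and 3 thresholded summits inside its territory. One of the 4 lay at the very edge, as described below, and N, dpp and tkv had 3 each. None of the 4 was within 2 kb of dome, where N and tkv had 3, and the conservative list of the whole series held 3 peaks in the dome territory, 4 in that of dpp and 5 in that of tkv. The strongest was the Zw intron region printed above, 7464 bp past the 3′ end of dome. Zw encodes glucose-6-phosphate dehydrogenase. It stood at percentile 85.9, 84.5 and 87.7, or 86.0 ± 1.61 (SD, n = 3). A neighbouring region (19666933 to 19667272) 149 bp upstream of the Zw start stood at 45.6, 57.2 and 19.0.

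The next of the dome regions (19665891 to 19666230) lay in the 3′ UTR of Ssu72, an RNA polymerase II phosphatase gene, at percentile 36.8, 42.0 and 37.0. Here the replicate 2 summit was exactly 10000 bp past the 3′ end of dome and counted, and those of replicates 1 and 3 were 10011 and 10009 bp past it and did not. The last (19693297 to 19693451) lay on the upstream side, 103 bp inside Mer, which encodes the fly homologue of the tumour suppressor Merlin, at percentile 55.3, 78.5 and 20.6. Its rank differed widely between replicates although the 3 summits spanned 5 bp. The summit was 9879 bp upstream of the dome start.

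The ligand gene upd1 (FBgn0004956, chromosome X, 18305354 to 18309291, minus strand) had the fewest ranked candidates, 4, 13 and 4, and no place with a candidate in all 3 ranked lists. The strongest by signal stood at percentile 52.2, 79.5 and 67.7, with IDRs of 0.858, 0.649 and 0.859. Those of replicates 1 and 2 lay downstream, with summits at positions 18295818 and 18295851, and that of replicate 3 lay 1682 bp upstream of the start. Just outside the territory, 11148 bp past the 3′ end, was a region in all 3 thresholded lists (18294163 to 18294314) at percentile 56.9, 75.5 and 29.4, whose nearest start is that of upd1 at 14053 bp. The gene thus has no shared region at 10 kb and would have 1 at 20 kb.

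As the plot of ranked candidates shows, replicate 2 had the most candidates at each of the 10 genes, and it also had the longest ranked list. The number of candidates did not separate the genes with shared regions from those without: Ser had 16, 32 and 6, and dome 6, 16 and 6. By thresholded summits per replicate the order was dpp at 3.67 ± 1.53, dome at 3.33 ± 0.577, tkv at 3 ± 1, N at 2.33 ± 0.577, hop at 2 ± 0, and put and sax at 0.667 ± 0.577 each (SD, n = 3), followed by the 3 genes at 0. Each gene from dpp to hop differed from its neighbour in this order by less than the larger SD of the pair, though not always the smaller. The counts of put and sax did not overlap those of hop. In the 10 territories, 45 places had a candidate in all 3 ranked lists, and 25 of these were in no thresholded list.

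The 17 shared regions differed widely in strength, with mean percentiles from 14.1 to 91.6. Their median mean percentile was 40.6, against 53.0 for the other 3446 shared regions, and 4 of the 17 (23.5%) had a mean percentile of 80 or more, against 19.8% of the others. Of the 17, 10 (58.8%) were in all 3 lists, against 65.6% of the others. Each of the 7 shared regions missing from 1 thresholded list had a ranked candidate of that replicate within 150 bp, with an IDR from 0.157 to 0.676. Of these 7, 2 were missing from replicate 1, 5 from replicate 3 and 0 from replicate 2.

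By annotation, 9 of the 17 summits were in introns, 5 in promoters, 2 in intergenic sequence and 1 in a 3′ UTR. The intron share was 52.9% (95% exact binomial interval 27.8 to 77.0%, counting error only), with 35.6% among the other shared regions inside that interval. By replicate list it was 53.3%, 45% and 66.7%, or 55% ± 10.9 (SD, n = 3). The promoter share was 29.4% (10.3 to 56.0%), and 48.0% among the others, inside that interval. By replicate list it was 33.3%, 35% and 25%, or 31.1% ± 5.36 (SD, n = 3). The shares by replicate list, for introns and promoters, count all thresholded summits of a list, also those in a single list. The matching shares outside the territories were not computed, so these are not set against the other shared regions. Only 1 of the 5 promoters, that of N, belonged to one of the 10 genes, and the others were those of CG14853, puml, Zw and Mer.

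Base composition and motifs at the summits were looked at in the 100 bp around each. Mean GC was 36.9% over the 17 windows and 31.03% over the other shared regions, and by replicate list 32.2%, 37.3% and 32.3% against 31%, 32.9% and 32%. The difference within a replicate was positive in 3 of 3, at 2.01 ± 2.15 percentage points (SD, n = 3), and was not tested. By class, the 5 promoter windows had a mean of 46% (median 42%, range 31 to 65%) against 31.1% of other shared promoter regions. That of N was at 38%, and the others were at promoters of neighbouring genes. The 2 intergenic windows were at 38% against 31.2% and the 9 intron windows at 29.9% against 30.6%, while the single 3′ UTR window was at 53%. ACGTG, the core of the sites that Tango binds with Single-minded or Trachealess, was in 0 of the 17 windows, and in 5.52% of all shared regions. The 95% exact binomial interval around 0 of 17 runs from 0 to 19.5% and includes that share. Over the deposited intervals it was in 3 of 17, against 20.04%. GCGTG was in 2 windows (5.4% of all), TATCGA in 2 (5.02%), GATAA in 3 (24.3%), GAGAG in 2 (7.31%), and CAGGTA (1.85%), TTCNNNGAA (3.06%) and GCCGNCG (0.866%) in 1 each, while GTGGGAA (0.549%) and GTGAGAA (1.18%) were in 0.

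Other genes of the 3 pathways were taken from lists of 71 genes and read by the same rule. A shared region was in the territory of 51 of the 71 (71.8%) and in the body of 21 (29.6%), beside the 54.9% and 9.63% of all genes. By pathway the territories of 25 of 32 Notch, 17 of 26 Dpp and 9 of 13 JAK-STAT genes had one, and the bodies of 5, 11 and 5. The median length of the 71 was 5879 bp. Territories of neighbouring genes overlap, so these counts are not independent.

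In the Notch list all 10 genes of the E(spl) complex, a cluster of Notch target genes, had a shared region in their territory and 0 in their body, and these 10 territories together held 9 regions. Their clustering means that several count the same region, such as the one 139 bp upstream of the start of gro, which encodes the co-repressor Groucho (percentile 95 ± 2.03, SD, n = 3). The strongest in this list were at shrb, an ESCRT-III subunit gene (97.4 ± 0.743), O-fut1, whose enzyme adds fucose to Notch (96.9 ± 0.578), and neur, which encodes the ubiquitin ligase Neuralized that acts on Delta (95.8 ± 1.59). Of these the regions of neur and gro were nearest to the gene's own start, and those of shrb and O-fut1 were at the promoters of CG8788 and CG13018.

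In the Dpp list the strongest regions were at gbb, another BMP ligand gene (99.4 ± 0.437, at the promoter of eIF6), Med, the co-Smad gene (98.6 ± 0.332, at the promoter of Mnat9), tin, a homeobox gene of the mesoderm (95.6 ± 1.39, 213 bp upstream of its own start), and magu, a gene for a secreted modulator (91.4 ± 0.851, 272 bp upstream of an own start; all SD, n = 3). In the JAK-STAT list they were at Su(var)2-10, the PIAS gene (99.4 ± 0.439, at the start of GstE13), chinmo (96.4 ± 1.88, 7825 bp upstream), zfh1 (92.5 ± 2.76, in its own intron) and et, the short receptor gene (86.0 ± 1.61; all SD, n = 3). The region counted for et is the same Zw intron region as that of dome, and the single region of upd3 is the one just outside the territory of upd1. The strongest regions of the 10 genes, at percentiles up to 91.6, stood below the top values of each of these lists. The territories of the 71 genes held 135 distinct shared regions, against 17 at the 10 genes. A maximum tends to rise with the number of regions, so the top values are not comparable, and this difference was not tested.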

How the data were processed

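Anti-GFP ChIP-seq of sonicated tgo-GFP embryos (fragments of 200 to 800 bp) gave 3 biological replicates, all in 1 group per the labels. A thresholded and a ranked peak list on dm6 were deposited for every replicate, called against a control. Neither the aligner nor the peak caller is given in the sources used here. The authors' score runs from 830 to 1000 in the thresholded lists and is a scaled IDR. The ranked lists give the global IDR as −log10, as deposited by the authors. The authors' signal value has no stated unit and served here to order the peaks of each list. Positions came from the deposited summit offset. The conservative list of the whole series (5302 peaks) served as an alternative.

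Summits on the major arms were chained where neighbours were no more than 150 bp apart, and each region was placed at the summit with the highest percentile. A promoter was the 1000 bp before and the 200 bp after a protein-coding start, and took precedence over UTR, coding, intron and intergenic sequence. Gene models were Ensembl release 115 for BDGP release 6, and sequence came from the NCBI Release 6 assembly. Motif and GC windows were 100 bp. Intervals are 95% exact binomial and cover counting error only. Density was compared by a two-sided exact sign-flip permutation over replicates. Computation used Python 3.11.15 with numpy 2.4.6 and scipy 1.17.1, tested on simulated data.

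Named were the 10 genes with every region, the gene with the start nearest to each shared region, up to 4 genes per pathway list with the strongest region, and the strongest ranked candidate of genes without a thresholded summit. Others named, such as the genes near other candidates and upd3, were chosen after their values were seen. The 10 genes, the lists and the alternatives were chosen with earlier results of these data known.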

Additional observations from a re-analysis of the deposited data

How the results depend on the processing

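Of 76 recomputed summaries, 59 kept to the reported result and of 120 counts for single genes 89 did. That means within 1.5 times for a count of genes or regions, within the spread between replicates for summits per replicate, shares and GC, and the same sign of the mean for the density ratio. The 17 shared regions became 10 when all 3 lists were demanded, 6 with the upper part of each list by signal (above its median), 6 in gene bodies alone, 8 with 2 kb on either side, and 9 to 15 with a replicate left out. The 7 genes with a shared region became 3 in gene bodies alone and 3 with 2 kb, and 5 to 7 with a replicate left out. The 15.7 summits per replicate became 9.33, 6.67, 6 and 7.67 under the first 4 of these choices, 21.7 with 20 kb, and 13.5 to 17.5 with a replicate left out. The intron share of 52.9% became 66.7% with the upper part of each list, 35.3% with wider promoters (2000 bp before, 500 bp after the start), and 53.3 to 66.7% with a replicate left out. The share of windows with ACGTG became 11.8% with windows of 200 bp. The 51 other pathway genes became 21 in gene bodies alone. The mean log2 density ratio of 0.52 was positive under every alternative run, but its size was not kept: it was 0.27 with the upper part of each list, 0.27 with ranked candidates at an IDR of 0.05 or less, 0.14 in gene bodies alone and 0.20 with 2 kb. In the last 2, replicate 1 was below 0. GC stayed between 35.3% and 38.1%. Since the lists give no read depth, a place absent from a thresholded list cannot be called unbound.

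No paired analysis was possible because there was 1 group, that is, none between groups. The density, passing share and GC of the territories were set against the rest of the same replicate.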
